A study of Mus musculus with 24 samples.

Results

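The change over time in the ears of mice with a psoriasis-associated form of CARD14, from an acute stage at day 5 to a chronic stage at 1 month, is described here. The comparison rests on 12 of the 24 libraries of the series, taken by their labels: 6 of Card14 E138A knock-in ears at 1 month and 6 of the same genotype at day 5. The other 12 libraries are of wild-type ears, 6 at each time, and serve here as the reference for what time does without the mutation. All mice were C57BL/6, all received tamoxifen by intraperitoneal injection on consecutive days, wild type included, and time was counted from the first injection. The mutant mice carried Card14LSL-E138A, an allele that is read from the endogenous Card14 locus once tamoxifen has activated CreERT2. The labels do not give the promoter that drives CreERT2, the age or the sex of the mice, or whether the samples came from separate animals, so p-values measure only the spread between these samples. Whole ears were taken, so that epidermis, follicles, dermis, cartilage, muscle and immune cells were read together, and in such bulk samples fewer cells of a type and less RNA per cell cannot be told apart. Time after injection, the age of the mice and anything else that differed between the sampling times cannot be told apart either.

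In keratinocytes the scaffold CARD14 joins BCL10 and MALT1 and switches on the transcription factor NF-kB. In psoriasis, keratinocytes with active NF-kB release chemokines that draw in neutrophils, dendritic cells and T cells, and IL-17 and IL-22 from lymphocytes act back on the keratinocytes, which divide faster and mature differently. Mouse ear skin also holds resident gamma delta T cells in the epidermis, and hair follicles that pass through cycles of rest and growth.

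The mutant libraries held 16803680 to 18852963 counts at day 5 and 20608274 to 23022149 at 1 month, and values below are CPM (counts per 1000000 counts) scaled by TMM factors. The 1-month libraries fell into 2 kinds. In mutant replicates 1, 2 and 6 the deviation of each gene from its median over all libraries rose with the GC content of its transcript (Spearman's rho across 12070 genes of 0.341 to 0.584). Mitochondrially encoded genes took 0.923 to 1.29% of counts in these replicates. In mutant replicates 3, 4 and 5 rho was -0.489 to -0.393 and the mitochondrial share 2.77 to 4.28%. At day 5 no library of either genotype passed the rho of 0.3 used here as the limit, and among the wild-type libraries of 1 month 4 did. The libraries above the limit are called raised-GC libraries below, and counts of genes are given with and without them, that is without 3 mutant and 4 wild-type libraries of 1 month. Values of single genes without them are given where a call is lost or the change moves by more than 1.5-fold. Ddx3y, on the Y chromosome, shows how far single genes moved with this split: it lay at 2.82 to 16.3 CPM in the raised-GC mutant libraries and at 71.4 to 82.3 CPM in the other mutant libraries of 1 month, while Xist never passed 3 counts. Some genes also separated the times in both genotypes: Gm28439, an unprocessed pseudogene at chr1:24611535-24612410 (GRCm38), held 535 to 5821 counts in each day-5 library and 0 in each 1-month library, and Gm10095, at chr12:86845778-86846467, held 241 to 534 counts at 1 month and 0 at day 5. What else differed between the sampling times, such as the preparation of the libraries, is not stated in the labels.

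**Figure D1:**
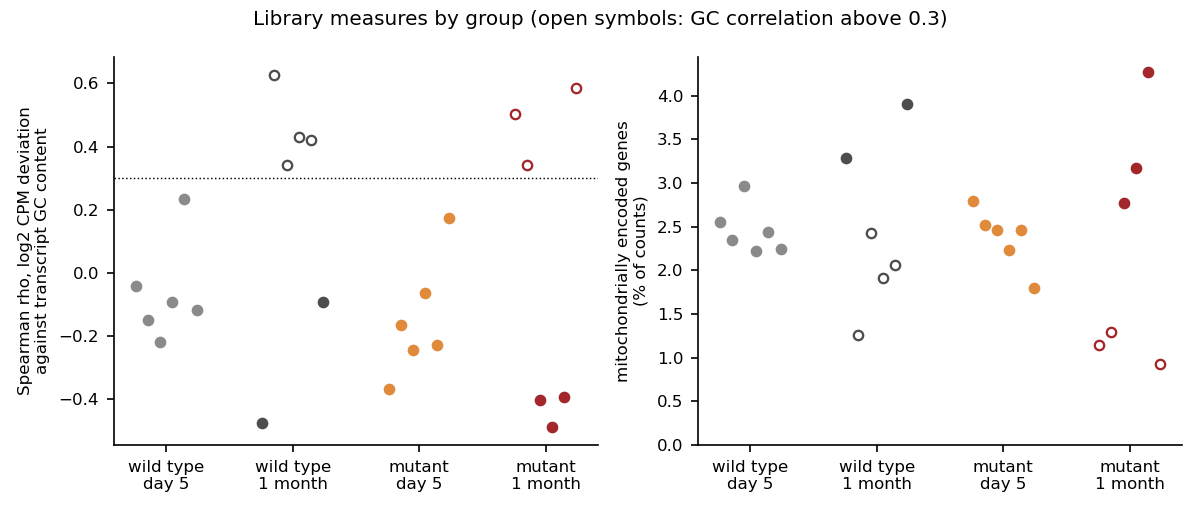
Each point is 1 of the 24 libraries; the left axis gives the Spearman correlation between a library's log2 CPM deviation and transcript GC content across genes, and the right axis the percentage of counts from mitochondrially encoded genes. Open symbols mark the libraries with a correlation above 0.3 (the dotted line): 3 mutant and 4 wild-type libraries of 1 month and none of day 5, and the 3 mutant ones hold 0.923 to 1.29% mitochondrial counts against 2.77 to 4.28% in the other 3.

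Card14 itself was read at both times in mutant ears and was lower at 1 month. It lay at 35.1 to 65.4 CPM (median 44.5) at day 5 and 9.93 to 25.3 CPM (median 13.02) at 1 month in mutant ears, with means of 46.2 ± 11.1 CPM (SD, n = 6) and 14.3 ± 5.63 CPM (SD, n = 6). The groups did not overlap, and the log2 fold change of 1 month over day 5 was -1.69 ± 0.20 (SE), adjusted p = 1.21e-06 by edgeR's quasi-likelihood test with Benjamini-Hochberg adjustment, which gives all adjusted p-values below. Every change given below is a log2 fold change of 1 month over day 5. Without the raised-GC libraries it was -1.92. In wild-type ears Card14 had medians of 48.5 CPM at day 5 and 37.5 CPM at 1 month and a log2 fold change of -0.17 (adjusted p = 0.576), and the difference between the genotypes' time changes was -1.52 ± 0.28 (SE), adjusted p = 0.000827. The table counts all Card14 transcripts of chr11:119307768-119345375 (GRCm38) together, so that the mutant and the normal allele are not separated. Among the 13 tested genes of the CARD14 complex and its close relatives, Card10, a scaffold of the same family, was the other gene that fell. Its log2 fold change was -0.35 ± 0.10 (SE), adjusted p = 0.0209. Its groups overlapped, and the call was lost on leaving out any 1 of 5 libraries (mutant 1 month replicate 2, 3 or 4, or mutant day 5 replicate 3 or 4), with values of -0.32 to -0.25. Bcl10, Malt1 and the other members did not pass the test.

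In mutant ears 3360 of 17287 tested genes differed between the times, which is 19.4%. Of these, 1937 (11.2%) were higher at 1 month and 1423 (8.23%) were lower, and 820 of the higher and 659 of the lower changed by at least 1 on the log2 scale. The median log2 fold change over all tested genes was -0.02. Without the raised-GC libraries 2870 genes (16%) were higher and 3073 (17.2%) lower of 17893 tested, and with the raised-GC libraries alone at 1 month 5277 (29.9%) and 4661 (26.4%), together 56.3%, of 17641. Of the 1937 higher genes 1200 were called in that direction in all 3 fits, of the 1423 lower genes 809 were, and none was called in the opposite direction in either. Wild-type ears had 1572 genes called (9.09%), 1086 higher (6.28%) and 486 lower (2.81%) at 1 month, and 271 (1.51%) and 170 (0.95%), together 2.46%, without the raised-GC libraries. The wild-type split moved with the scaling, to 1457 higher and 374 lower with RLE size factors and to 1518 and 346 with total counts only. Tested directly, the time change differed between the genotypes for 1516 genes (8.77%), more positive in mutant ears for 809 (4.68%) and more negative for 707 (4.09%), and these include 706 of the 1937 higher genes and 432 of the 1423 lower genes. Without the raised-GC libraries 8.43% differed, 4.3% more positive and 4.13% more negative.

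**Figure D2:**
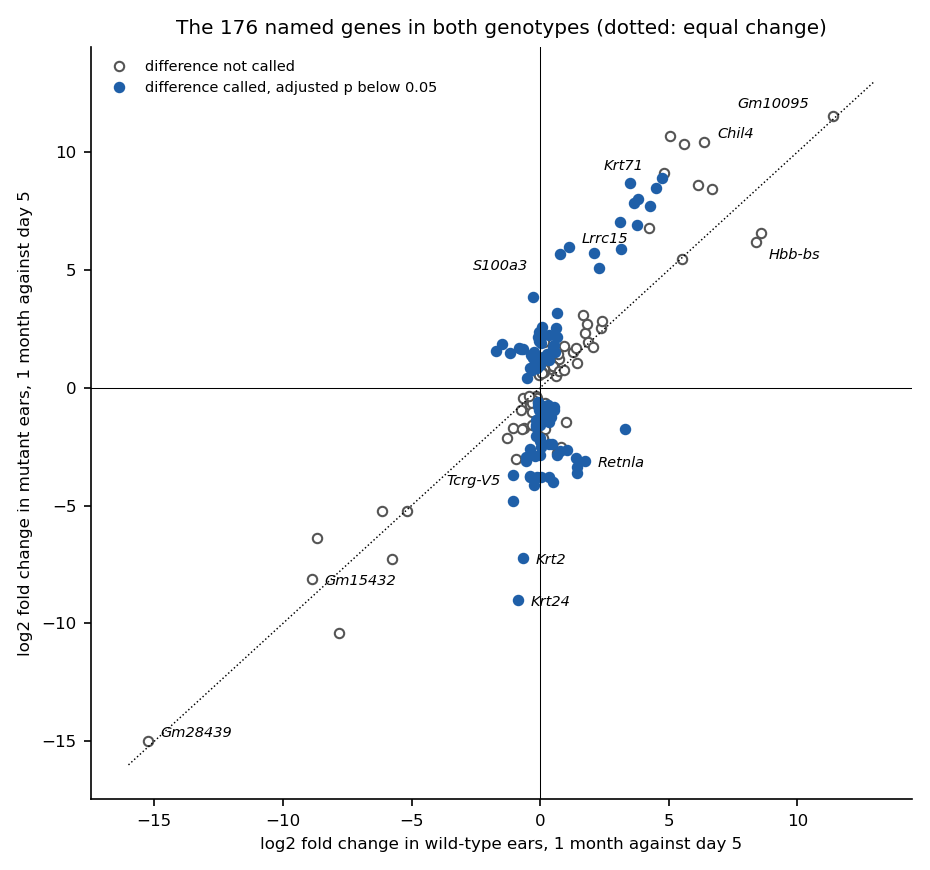
Each point is 1 of the 176 genes chosen by the naming rule; the horizontal axis is its log2 fold change from day 5 to 1 month in wild-type ears and the vertical axis the same in mutant ears. Filled points are the 97 genes whose time changes differ between the genotypes at an adjusted p below 0.05, some of them chosen for that difference. Krt24 and Krt2 are among the filled points, far below the dotted line of equal change. Gm28439, Gm10095 and the haemoglobin gene Hbb-bs lie far from 0 in both genotypes and are not filled.

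Many genes of NF-kB signalling were lower at 1 month. Of 20 tested target and feedback genes 10 fell and 2 rose, with a median log2 fold change of -0.49, against 15 and 1 without the raised-GC libraries, and 6 of the 10 fell in all 3 fits. On leaving out any 1 of 5 single libraries 1 member rose in place of 2. In wild-type ears none fell and 1 rose (none without the raised-GC libraries), and for 7 of the 20 the mutant change was the more negative. Tnfaip3, which encodes the feedback inhibitor A20, lay at 83.5 to 112 CPM (median 97.6) at day 5 and 29.7 to 43.9 CPM (median 35.5) at 1 month. The lowest day-5 value was thus above the highest 1-month value, and the log2 fold change was -1.45 ± 0.12 (SE), adjusted p = 6.39e-09 (-1.42 without the raised-GC libraries). Wild-type medians were 16.8 CPM at day 5 and 19.8 CPM at 1 month, and the difference between the genotypes was -1.80 ± 0.17 (SE), adjusted p = 2.48e-07. Nfkbia, which encodes the inhibitor that holds NF-kB in the cytoplasm, lay at 264 to 298 CPM (median 283) at day 5 and 103 to 175 CPM (median 130.5) at 1 month, again with no overlap. It changed by -1.07 ± 0.13 (SE), adjusted p = 2.07e-06. Sod2, a mitochondrial superoxide dismutase induced by NF-kB, lay at 143 to 252 CPM (median 223) at day 5 and 98.5 to 138 CPM (median 122) at 1 month. It changed by -0.75 ± 0.12 (SE), adjusted p = 3.85e-05. Birc3, an inhibitor of apoptosis that acts in TNF receptor signalling, lay at 84.8 to 112 CPM (median 93.3) at day 5 and 50.3 to 69.6 CPM (median 64.3) at 1 month, with a log2 fold change of -0.59 ± 0.10 (SE), adjusted p = 0.000113. These 4 genes thus stood apart by time in all 12 mutant libraries. They were picked for the smallest adjusted p in the same comparison, as were most genes given by value below. A lack of overlap therefore follows in part from that choice and does not describe the lists. The share of all tested genes without overlap is not given here. Tnip1, a partner of A20, changed by -0.92 ± 0.15 (SE), adjusted p = 0.000116. Tnf, the inflammatory cytokine, lay at 7.12 to 13.1 CPM (median 11.3) at day 5 and 4.42 to 10.6 CPM (median 5.51) at 1 month and its groups overlapped, with a change of -0.76 ± 0.20 (SE), adjusted p = 0.00859. The 2 genes that rose were Cd83, a surface protein of activated dendritic cells, with 1.03 ± 0.20 (SE), adjusted p = 0.000573, and Nfkb1, which encodes the p50 subunit, with 0.27 ± 0.09 (SE), adjusted p = 0.0357 and 0.22 (adjusted p = 0.0954) without the raised-GC libraries.

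The promoters of several of the genes that fell hold the letters that NF-kB binds, and 4 are printed so that a reader can see the element beside the values. They are 59 to 70 bases upstream of the start site from RefSeq (GRCm38.p6), 5′ to 3′ on the gene's strand, with matches to the NF-kB consensus in capitals. Nfkbia and Tnfaip3 are feedback inhibitors, and Cxcl1 and Il6 encode a chemokine and a cytokine whose values follow.
Tnfaip3 (chr10:19015496-19015565, minus strand): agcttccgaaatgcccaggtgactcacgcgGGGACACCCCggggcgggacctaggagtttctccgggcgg
Nfkbia (chr12:55492648-55492706, minus strand): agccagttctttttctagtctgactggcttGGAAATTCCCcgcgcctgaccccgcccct
Cxcl1 (chr5:90891144-90891213, plus strand): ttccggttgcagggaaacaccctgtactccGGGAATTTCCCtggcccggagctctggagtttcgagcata
Il6 (chr5:30013040-30013109, plus strand): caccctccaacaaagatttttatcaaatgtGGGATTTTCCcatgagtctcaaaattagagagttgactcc
Windows from 250 bases before to 50 after the start were searched on both strands, and the match was found in 10 of 16 members of the NF-kB list with a window (62.5%), in 5 of 8 members that fell and had one, and in 2581 of 27025 windows of all genes (9.55%). Many of these genes are on the list because NF-kB is known to act on them, so the share describes the list and not its change in these ears.

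**Figure D3:**
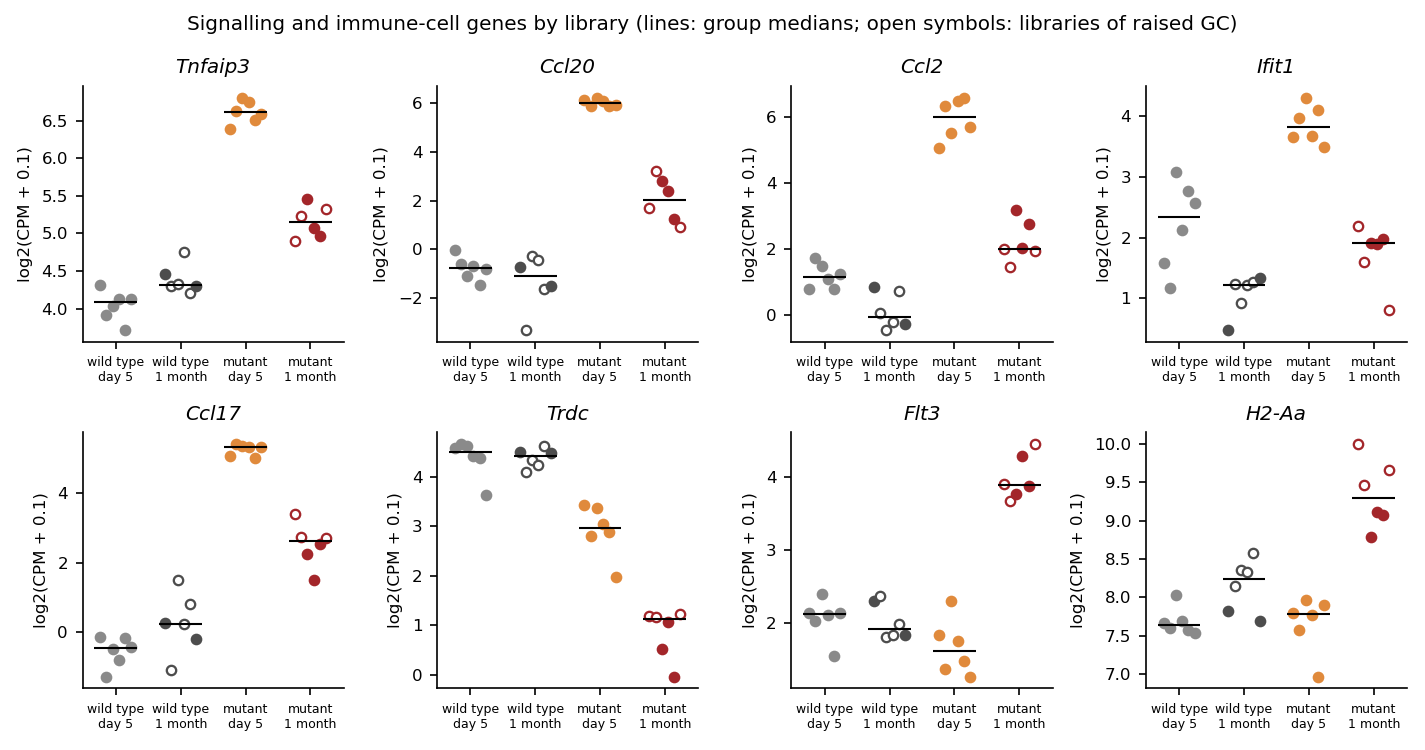
Each point is 1 library, by group, and the vertical axis is log2(CPM + 0.1); lines are group medians and open symbols the raised-GC libraries of 1 month. In mutant ears all 6 values of Tnfaip3, Ccl20, Ccl2, Ifit1, Ccl17 and Trdc at 1 month lie below the lowest of day 5, and all 6 values of Flt3 and H2-Aa lie above the highest.

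Among genes of the IL-17 and IL-23 axis, Ccl20 and Il17c fell most. Of 14 tested members 6 fell and 2 rose, against 7 and 1 without the raised-GC libraries, with a median of -0.62, and none passed edgeR's test in wild-type ears (1 at an unadjusted p under 0.05, 0 called by DESeq2 and 3 by limma voom). On leaving out any 1 of 5 single libraries 1 or none rose. Ccl20, the chemokine that draws cells with the receptor CCR6, lay at 58.98 to 75.1 CPM (median 64.9) at day 5 and 1.80 to 9.26 CPM (median 4.11) at 1 month. Its log2 fold change was -3.79 ± 0.38 (SE), adjusted p = 9.88e-08, the groups did not overlap, and the difference from the wild-type change was -3.38 ± 0.65 (SE), adjusted p = 0.0014. Wild-type medians of Ccl20 were 0.494 CPM at day 5 and 0.382 CPM at 1 month, so that the mutant ears of 1 month still held several times the wild-type level. Il17c, an epithelial IL-17 cytokine, lay at 1.19 to 4.45 CPM (median 3.07) at day 5 and 0.139 to 0.705 CPM (median 0.358) at 1 month, without overlap. It changed by -3.03 ± 0.41 (SE), adjusted p = 8.1e-06. Il22, which acts on keratinocytes from lymphocytes, lay at 2.61 to 29.1 CPM (median 20.2) at day 5 and 2.42 to 5.78 CPM (median 3.598) at 1 month and changed by -2.14 ± 0.47 (SE), adjusted p = 0.00524. Its day-5 values were spread over a wide range, and the groups overlapped through the lowest of them. Il12b, the subunit shared by IL-12 and IL-23, lay at 0.0593 to 3.25 CPM (median 2.303) at day 5 and 0.128 to 0.677 CPM (median 0.417) at 1 month, also with overlap, and changed by -2.51 ± 0.51 (SE), adjusted p = 0.000834. Il17a, Il17f and Il23a did not pass the test with all libraries. Il17a lay at 0 to 2.75 CPM (median 1.34) at day 5 and 0.5103 to 1.41 CPM (median 0.784) at 1 month, with a log2 fold change of -0.64 ± 0.63 (SE), adjusted p = 0.523. Il17f had a log2 fold change of -1.12 ± 0.41 (SE), adjusted p = 0.061, and -1.48 (adjusted p = 0.0293) without the raised-GC libraries. Il23a, the subunit particular to IL-23, had -0.02 ± 0.41 (SE), adjusted p = 0.977. Il17ra, the shared receptor chain for IL-17, fell by 0.60 on the log2 scale (-0.60 ± 0.11 (SE), adjusted p = 0.000301), and Ccr6, the receptor for CCL20, was one of the 2 that rose (0.96 ± 0.29 (SE), adjusted p = 0.0208).

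The IL-10 and IL-20 family had 4 falls and 1 rise among 11 tested members, and 3 and 0 without the raised-GC libraries. The rise was also lost without mutant 1 month replicate 2 or 6 or mutant day 5 replicate 1, 3 or 4. Il22ra2, a soluble receptor that binds IL-22 and blocks it, lay at 15.3 to 40.9 CPM (median 24.2) at day 5 and 0.924 to 5.95 CPM (median 5.35) at 1 month, with no overlap, and its log2 fold change was -2.59 ± 0.35 (SE), adjusted p = 7.5e-06. In wild-type ears it had medians of 13.4 CPM at day 5 and 10.4 CPM at 1 month, both above the mutant level of 1 month. Il20ra, a receptor chain for IL-19, IL-20 and IL-24, changed by -1.16 ± 0.25 (SE), adjusted p = 0.00184, with wild-type medians of 31.4 CPM at day 5 and 42.02 CPM at 1 month. The IL-1 and IL-36 family moved in both directions, with 3 rises and 2 falls among 13, and 6 and 3 without the raised-GC libraries. These counts were not stable to single libraries: the rises were 1 without mutant 1 month replicate 2 or mutant day 5 replicate 4, and the falls 1 without any 1 of 5 libraries. Il1f8, which encodes IL-36 beta, lay at 9.02 to 26.6 CPM (median 16.95) at day 5 and 25.4 to 79.2 CPM (median 42.9) at 1 month. It rose by 1.34 ± 0.33 (SE), adjusted p = 0.00539. Il18 lay at 5.72 to 7.21 CPM (median 6.90) at day 5 and 3.84 to 19.5 CPM (median 14.8) at 1 month. It rose by 0.91 ± 0.29 (SE), adjusted p = 0.0287, with 1.33 without the raised-GC libraries and 0.38 (adjusted p = 0.292) with them alone. Its call was lost on leaving out any 1 of 5 libraries (mutant 1 month replicate 2, 4 or 5, or mutant day 5 replicate 4 or 5), with values of 0.76 to 0.90. Il1r1, the receptor that IL-1 signals through, changed by -0.77 ± 0.13 (SE), adjusted p = 0.000168, with overlap. Il1b spanned 5.22 to 138 CPM (median 92.2) at day 5 and 43.3 to 138 CPM (median 53.7) at 1 month and did not pass the test (-0.13 ± 0.71 (SE), adjusted p = 0.919).

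Several chemokines and growth factors that attract neutrophils were lower at 1 month. Of 10 tested, 5 fell and none rose (median -1.93), all 5 in each of the 3 fits, and for 5 the change was more negative than in wild-type ears, where 1 rose. Without the raised-GC libraries, which leaves 2 wild-type libraries of 1 month, none of these differences from wild type passed the test, and 3 had an unadjusted p under 0.05. Cxcl1, a ligand of the neutrophil receptor CXCR2, lay at 42.2 to 109 CPM (median 60.8) at day 5 and 9.06 to 21.4 CPM (median 12.4) at 1 month, without overlap. It changed by -2.40 ± 0.28 (SE), adjusted p = 1.09e-06. Csf2, which encodes the growth factor GM-CSF, lay at 2.14 to 4.11 CPM (median 3.41) at day 5 and 0.146 to 0.906 CPM (median 0.501) at 1 month, again without overlap, and changed by -2.84 ± 0.33 (SE), adjusted p = 9.26e-07. Il6, a cytokine that also drives acute phase genes, lay at 2.43 to 12.4 CPM (median 6.76) at day 5 and 0.438 to 2.05 CPM (median 0.955) at 1 month. It changed by -2.78 ± 0.42 (SE), adjusted p = 2.83e-05. Wild-type medians of Cxcl1 were 0.587 CPM at day 5 and 0.664 CPM at 1 month, below the lowest mutant value of either time. Cxcl2, a second CXCR2 ligand, lay at 7.65 to 60.2 CPM (median 49.4) at day 5 and 12.9 to 52.4 CPM (median 22.9) at 1 month and did not pass the test (-0.57 ± 0.68 (SE), adjusted p = 0.6).

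Of 13 chemokines for monocytes and lymphocytes, 6 fell and 2 rose, and 8 and 1 without the raised-GC libraries. The rises were 1 without any 1 of 3 single libraries. Ccl2, which attracts monocytes through CCR2, lay at 33.2 to 95.6 CPM (median 65.7) at day 5 and 2.67 to 9.04 CPM (median 3.93) at 1 month. Its log2 fold change was -3.71 ± 0.32 (SE), adjusted p = 1.39e-08, with no overlap, and the difference from the wild-type change was -2.64 ± 0.46 (SE), adjusted p = 0.00049. Ccl7, a second CCR2 ligand, lay at 51.7 to 126 CPM (median 94.4) at day 5 and 7.103 to 17.4 CPM (median 8.87) at 1 month. It changed by -3.12 ± 0.28 (SE), adjusted p = 2.12e-08, likewise without overlap. Cxcl10, an interferon-induced ligand of CXCR3 on T cells, lay at 2.89 to 19.9 CPM (median 7.74) at day 5 and 1.09 to 2.81 CPM (median 1.35) at 1 month. It changed by -2.51 ± 0.51 (SE), adjusted p = 0.000842. Its 1-month values were all below those of day 5, by a narrow margin. Cxcl12, a chemokine that stromal cells make constantly, rose instead (0.71 ± 0.16 (SE), adjusted p = 0.00253), and its difference from the wild-type change did not pass the test (0.67 ± 0.23 (SE), adjusted p = 0.069). The NF-kB consensus was in 4 of 7 windows of the neutrophil attractants (57.1%) and in 2 of 9 of this list (22.2%).

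Most interferon-stimulated genes fell. Of 16 tested, 13 fell and none rose (median -1.3), 14 fell without the raised-GC libraries, and 11 fell in all 3 fits. In wild-type ears 3 fell (1 without the raised-GC libraries), the median was -0.47, and the difference between the genotypes passed the test for 2 (for 1 without the raised-GC libraries). Ifit1, which binds foreign RNA, lay at 11.2 to 19.7 CPM (median 14.2) at day 5 and 1.65 to 4.48 CPM (median 3.65) at 1 month, without overlap, and changed by -2.14 ± 0.27 (SE), adjusted p = 3.79e-06. In wild-type ears it changed by -1.3 (adjusted p = 0.00491), or by -1.42 (adjusted p = 0.0943) without the raised-GC libraries, and the difference between the genotypes was -0.84 ± 0.38 (SE), adjusted p = 0.211, so that a larger change in the mutant was not shown for this gene. Oasl2, of the oligoadenylate synthetase family, lay at 27.5 to 62.7 CPM (median 37.5) at day 5 and 6.44 to 19.8 CPM (median 12.6) at 1 month, with a change of -1.72 ± 0.26 (SE), adjusted p = 2.93e-05. Mx2, of an antiviral GTPase family but annotated as a polymorphic pseudogene, lay at 2.54 to 5.57 CPM (median 2.92) at day 5 and 0.754 to 1.19 CPM (median 1.01) at 1 month. It changed by -1.76 ± 0.30 (SE), adjusted p = 0.000135. Rsad2, which encodes viperin, lay at 5.34 to 10.2 CPM (median 8.29) at day 5 and 1.16 to 4.801 CPM (median 2.66) at 1 month. It changed by -1.57 ± 0.29 (SE), adjusted p = 0.000369. Each of these 3 genes had all 1-month values below all day-5 values. Isg15, a ubiquitin-like modifier, changed by -1.74 ± 0.34 (SE), adjusted p = 0.000569, and by -2.67 without the raised-GC libraries. The promoters of 3 members that fell are shown with the letters GAAA, 2 free bases and GAAA, the core of the interferon-stimulated response element, in capitals on either strand (RefSeq, GRCm38.p6, 5′ to 3′ on the gene's strand).
Ifit1 (chr19:34640755-34640824, plus strand): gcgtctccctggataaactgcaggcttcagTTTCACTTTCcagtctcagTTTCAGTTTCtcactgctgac
Rsad2 (chr12:26456533-26456602, minus strand): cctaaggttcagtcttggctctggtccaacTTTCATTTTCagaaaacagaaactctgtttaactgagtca
Isg15 (chr4:156200857-156200926, minus strand): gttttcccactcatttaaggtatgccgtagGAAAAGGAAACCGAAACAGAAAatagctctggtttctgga
These letters were found in 7 of 11 members with a window (63.6%), in 5 of the 8 that fell and had one, and in 1079 of 27025 windows of all genes (3.99%). Genes known to respond to interferon make up this list, so the share describes the list and not its change in these ears. Overlapping matches were merged in the print, as in Isg15, whose window holds 3.

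Acute phase genes, which inflamed tissue makes under IL-6 and IL-1, fell in part. Of 10 tested 5 fell and none rose (median -1.16), 8 fell without the raised-GC libraries, and in wild-type ears 2 rose (1 without the raised-GC libraries) and none fell. For 6 of the 10 the mutant change was the more negative. Saa1, serum amyloid A, lay at 7.48 to 32.2 CPM (median 22.8) at day 5 and 0.785 to 4.73 CPM (median 1.85) at 1 month. It changed by -3.36 ± 0.40 (SE), adjusted p = 1.15e-06, or by -4.15 without the raised-GC libraries. Ptx3, a soluble pattern receptor, lay at 6.88 to 28.2 CPM (median 26.2) at day 5 and 1.21 to 5.01 CPM (median 2.42) at 1 month, with a change of -2.95 ± 0.40 (SE), adjusted p = 7.25e-06. Orm1, a plasma glycoprotein, lay at 83.8 to 104 CPM (median 88.9) at day 5 and 21.1 to 57.4 CPM (median 26.2) at 1 month and changed by -1.58 ± 0.17 (SE), adjusted p = 2.62e-07. Steap4, a metalloreductase induced by inflammatory cytokines, lay at 156 to 247 CPM (median 202) at day 5 and 102 to 135 CPM (median 116) at 1 month. It changed by -0.76 ± 0.13 (SE), adjusted p = 0.000205. None of these 4 overlapped between the times. Hp, haptoglobin, changed by -1.08 ± 0.30 (SE), adjusted p = 0.0122 in mutant ears (-1.71 without the raised-GC libraries) and by 1.42 (adjusted p = 0.00465) in wild-type ears, where it was 0.82 (adjusted p = 0.163) without those libraries, with a difference of -2.5 ± 0.42 (SE), adjusted p = 0.000409.

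The most abundant alarmins did not follow. Of 12 tested antimicrobial and alarmin genes 1 rose and 1 fell, and 0 and 2 without the raised-GC libraries. Over all tested genes 11.2% were called higher and 8.23% lower with all libraries, and 16% and 17.2% without the raised-GC ones. S100a8, a subunit of calprotectin that keratinocytes and neutrophils release, lay at 763 to 3507 CPM (median 2180.4) at day 5 and 1589.8 to 3191 CPM (median 1802) at 1 month and had a log2 fold change of 0.04 ± 0.33 (SE), adjusted p = 0.941. S100a9, its partner, lay at 1122 to 4948 CPM (median 3111) at day 5 and 1509.8 to 3865 CPM (median 2512) at 1 month, with -0.15 ± 0.34 (SE), adjusted p = 0.789. In wild-type ears the medians of S100a8 were 1.798 CPM at day 5 and 8.28 CPM at 1 month, so both mutant groups lay far above both wild-type groups. Slpi, a protease inhibitor of the barrier, was the member that fell (-1.24 ± 0.33 (SE), adjusted p = 0.00875, and -1.94 without the raised-GC libraries), and S100a7a, psoriasin, the one that rose (1.5 ± 0.43 (SE), adjusted p = 0.0156). S100a7a had 0.97 (adjusted p = 0.147) without the raised-GC libraries, and its call was also lost without mutant 1 month replicate 2 alone (1.21).

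Among myeloid markers several of neutrophils fell. Of 9 tested neutrophil markers 5 fell and none rose, the same count in each fit, and their summed level was 821 to 3844 CPM in the mutant day-5 libraries and 1696 to 3274 CPM at 1 month, a sum that S100a8 dominates. Mmp8, neutrophil collagenase, lay at 2.05 to 20.4 CPM (median 11.2) at day 5 and 0.973 to 2.34 CPM (median 1.67) at 1 month. It changed by -2.67 ± 0.46 (SE), adjusted p = 0.000151. Retnlg, a secreted protein of neutrophils, lay at 3.27 to 34.7 CPM (median 12.04) at day 5 and 0.851 to 3.64 CPM (median 1.75) at 1 month. It changed by -2.98 ± 0.55 (SE), adjusted p = 0.000325, or by -3.58 without the raised-GC libraries. Cxcr2, the chemokine receptor, lay at 34.0 to 118 CPM (median 102) at day 5 and 33.7 to 45.8 CPM (median 36.4) at 1 month and changed by -1.19 ± 0.32 (SE), adjusted p = 0.0105. The groups of all 3 overlapped, since 1 or more day-5 libraries were as low as those of 1 month. Of 16 monocyte and macrophage markers 3 rose and 3 fell, and 1 and 2 without the raised-GC libraries. Without those libraries 16% of all tested genes were called higher and 17.2% lower, so the latter counts do not exceed the share of all genes. Ly6c2, of inflammatory monocytes, changed by -2.06 ± 0.39 (SE), adjusted p = 0.00046. Cd163, the haemoglobin scavenger receptor of resident macrophages, changed by -1.39 ± 0.30 (SE), adjusted p = 0.00181, and by -1.0 (adjusted p = 0.0531) without the raised-GC libraries. Adgre1, which encodes F4/80, rose by 0.78 ± 0.18 (SE), adjusted p = 0.00272, and Csf1r, the receptor that keeps macrophages alive, by 0.64 ± 0.20 (SE), adjusted p = 0.0248 but 0.41 (adjusted p = 0.137) without the raised-GC libraries. The Csf1r call was also lost without mutant 1 month replicate 1 (0.48), mutant day 5 replicate 1 (0.51) or mutant day 5 replicate 5 (0.57), and without any 1 of these 3 the count of rising macrophage markers was 1; the count of falling ones was 5 without mutant day 5 replicate 1. The macrophage list summed to 870.5 to 2312 CPM at day 5 and 1262 to 2442 CPM at 1 month.

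Several dendritic cell markers and the MHC class II genes rose. Of 11 tested dendritic and Langerhans cell markers 6 rose and none fell, against 5 and 0 without the raised-GC libraries, and 3 rose more than in wild-type ears. Flt3, the growth factor receptor of dendritic cell precursors, lay at 2.29 to 4.81 CPM (median 2.95) at day 5 and 12.6 to 21.9 CPM (median 14.8) at 1 month. It did not overlap, its log2 fold change was 2.36 ± 0.19 (SE), adjusted p = 6.07e-09, and the difference from wild-type ears, where the change was -0.04 (adjusted p = 0.908), was 2.40 ± 0.27 (SE), adjusted p = 3.42e-06. Siglech, a surface lectin of plasmacytoid dendritic cells, lay at 0.237 to 1.38 CPM (median 0.503) at day 5 and 2.47 to 5.11 CPM (median 3.46) at 1 month. It rose by 2.55 ± 0.35 (SE), adjusted p = 1.09e-05. Cd209a, a lectin of dermal dendritic cells, lay at 8.02 to 14.5 CPM (median 12.2) at day 5 and 16.95 to 25.8 CPM (median 21.8) at 1 month. It rose by 0.90 ± 0.17 (SE), adjusted p = 0.0003. Both were higher in all 6 libraries of 1 month than in any of day 5. Xcr1, the receptor of cross-presenting dendritic cells, rose by 1.54 ± 0.43 (SE), adjusted p = 0.0125, and Fscn1, an actin bundler of mature dendritic cells, by 0.98 ± 0.19 (SE), adjusted p = 0.000695. Cd207, langerin of Langerhans cells, lay at 5.44 to 30.97 CPM (median 17.9) at day 5 and 18.3 to 36.4 CPM (median 31.9) at 1 month and did not pass the test (0.60 ± 0.27 (SE), adjusted p = 0.132). The list summed to 192 to 214 CPM at day 5 and 266 to 363 CPM at 1 month.

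All 7 tested MHC class II genes rose (median 1.42), 6 of them without the raised-GC libraries, and 5 rose more than in wild-type ears, where none passed edgeR's test, 5 had an unadjusted p under 0.05, and DESeq2 called 4 and limma voom 6. H2-Aa, the alpha chain of the I-A molecule, lay at 125 to 249 CPM (median 219) at day 5 and 442 to 1022 CPM (median 632) at 1 month. It rose by 1.71 ± 0.20 (SE), adjusted p = 6.86e-07 (1.33 without the raised-GC libraries). H2-Eb1, the beta chain of I-E, lay at 79.0 to 178 CPM (median 148) at day 5 and 304 to 759.6 CPM (median 469) at 1 month and rose by 1.80 ± 0.21 (SE), adjusted p = 8.24e-07 (1.34). Ciita, the transactivator on which all class II genes depend, lay at 12.5 to 22.8 CPM (median 19.9) at day 5 and 30.6 to 52.99 CPM (median 39.6) at 1 month. It rose by 1.16 ± 0.16 (SE), adjusted p = 8.1e-06. None of the 3 overlapped between the times. Cd74, the chaperone of class II molecules, rose by 1.42 ± 0.20 (SE), adjusted p = 1.63e-05.

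Several genes of alpha beta T cells rose. Of 15 tested T cell markers 9 rose and 2 fell, and the same counts held without the raised-GC libraries, while in wild-type ears 2 rose (none without the raised-GC libraries). Cd4, the coreceptor of helper T cells, lay at 2.66 to 6.74 CPM (median 3.07) at day 5 and 11.9 to 19.1 CPM (median 14.5) at 1 month, without overlap. It rose by 1.99 ± 0.22 (SE), adjusted p = 4.84e-07. Foxp3, the transcription factor of regulatory T cells, lay at 0.178 to 1.03 CPM (median 0.649) at day 5 and 3.88 to 7.704 CPM (median 5.02) at 1 month, without overlap. It rose by 3.08 ± 0.36 (SE), adjusted p = 9.88e-07. In wild-type ears Foxp3 also rose, by 1.67 (adjusted p = 0.0173) but with 0.82 (adjusted p = 0.53) without the raised-GC libraries, and the difference between the genotypes did not pass the test (1.41 ± 0.59 (SE), adjusted p = 0.164). Cd8a, the coreceptor of cytotoxic T cells, lay at 0.0579 to 0.458 CPM (median 0.170) at day 5 and 1.56 to 2.63 CPM (median 1.79) at 1 month and rose by 3.20 ± 0.45 (SE), adjusted p = 1.35e-05. Trac, the constant segment of the T cell receptor alpha chain, lay at 0.541 to 1.08 CPM (median 0.7597) at day 5 and 2.45 to 6.403 CPM (median 3.04) at 1 month. It rose by 2.15 ± 0.26 (SE), adjusted p = 1.17e-06, and Trbc2, that of the beta chain, by 1.51 ± 0.18 (SE), adjusted p = 9.43e-07. The 2 that fell were chains of the CD3 complex that alpha beta and gamma delta T cells share, Cd3e (-0.79 ± 0.21 (SE), adjusted p = 0.00859) and Cd3g (-0.92 ± 0.23 (SE), adjusted p = 0.00498). The list summed to 41.4 to 54.3 CPM at day 5 and 80.1 to 122 CPM at 1 month.

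Some genes of gamma delta T cells fell over the same interval. Of 9 tested 4 fell and 1 rose, 6 and 1 without the raised-GC libraries, and for 4 the change was more negative than in wild-type ears, where none passed edgeR's test, none had an unadjusted p under 0.05, and DESeq2 called 0 and limma voom 3. Trdc, the constant segment of the delta chain, lay at 3.85 to 10.7 CPM (median 7.72) at day 5 and 0.877 to 2.24 CPM (median 2.08) at 1 month, without overlap. It changed by -2.13 ± 0.24 (SE), adjusted p = 5.81e-07, and by -0.02 (adjusted p = 0.955) in wild-type ears, where the medians were 22.6 CPM at day 5 and 21.2 CPM at 1 month. Tcrg-V5, a variable segment of the gamma chain, lay at 0.301 to 1.54 CPM (median 0.698) at day 5 and 0 to 0.0851 CPM (median 0.04401) at 1 month. It changed by -4.14 ± 0.45 (SE), adjusted p = 4.04e-07. Tcrg-C1, a constant segment of the gamma chain, lay at 1.86 to 5.46 CPM (median 3.44) at day 5 and 0.195 to 1.35 CPM (median 0.708) at 1 month. It changed by -2.25 ± 0.34 (SE), adjusted p = 3.08e-05, and the groups of both segments stood apart. Mutant medians of Trdc were thus below the wild-type medians at both times and lowest at 1 month. Sox13, a transcription factor of some gamma delta T cells that other skin cells also read, rose instead (1.3 ± 0.16 (SE), adjusted p = 2.49e-06). Of 9 cytotoxic lymphocyte genes 3 fell and none rose, and 4 fell and 1 rose without the raised-GC libraries. In all 3 fits 2 fell. Prf1, perforin, lay at 1.86 to 3.62 CPM (median 3.01) at day 5 and 0.231 to 0.778 CPM (median 0.5701) at 1 month, without overlap, and changed by -2.39 ± 0.23 (SE), adjusted p = 5.65e-08, with a difference from wild type of -2.85 ± 0.30 (SE), adjusted p = 1.89e-06. Gzma, granzyme A, lay at 0.602 to 3.27 CPM (median 0.993) at day 5 and 0.201 to 0.369 CPM (median 0.303) at 1 month. It changed by -2.12 ± 0.44 (SE), adjusted p = 0.000974. The gamma delta list summed to 29.4 to 43.8 CPM at day 5 and 24.1 to 48.8 CPM at 1 month.

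B cell genes other than Sdc1 were low at both times, and 11 of 17 listed markers, Ms4a1 among them, were too low to test. Of the 6 tested 4 rose and none fell, 3 without the raised-GC libraries. Ighm, the heavy chain of IgM, lay at 4.81 to 9.08 CPM (median 5.85) at day 5 and 23.8 to 37.5 CPM (median 29.6) at 1 month, without overlap. It rose by 2.25 ± 0.18 (SE), adjusted p = 5.3e-09, with a difference from wild type of 1.92 ± 0.25 (SE), adjusted p = 2.34e-05. Igha, the heavy chain of IgA, lay at 0.289 to 1.899 CPM (median 0.731) at day 5 and 2.63 to 21.6 CPM (median 4.55) at 1 month, also without overlap. It rose by 3.19 ± 0.49 (SE), adjusted p = 3.95e-05 (1.84 without the raised-GC libraries). Cd79b, a signalling chain of the B cell receptor, lay at 0.153 to 0.432 CPM (median 0.234) at day 5 and 0.893 to 3.44 CPM (median 1.07) at 1 month and rose by 2.59 ± 0.40 (SE), adjusted p = 3.87e-05 (1.97). The sum of the 6 genes, 407 to 680.0 CPM at day 5 and 566 to 1180.0 CPM at 1 month, is nearly all Sdc1, which keratinocytes express as well as plasma cells. Sdc1 lay at 399 to 668 CPM (median 554) at day 5 and 528 to 1102 CPM (median 820.2) at 1 month, and its change of 0.66 ± 0.17 (SE), adjusted p = 0.00714 was 0.23 (adjusted p = 0.194) without the raised-GC libraries. Mast cell, basophil and eosinophil markers had 7 rises and no fall among 11 tested, and 9 and 0 without the raised-GC libraries. Kit, the receptor that mast cells and melanocytes need, lay at 14.1 to 22.6 CPM (median 19.1) at day 5 and 27.4 to 36.8 CPM (median 32.95) at 1 month, without overlap. It rose by 0.82 ± 0.14 (SE), adjusted p = 0.00014. Mcpt4, a chymase of connective tissue mast cells, lay at 35.3 to 63.3 CPM (median 58.8) at day 5 and 82.01 to 278 CPM (median 97.1) at 1 month. It rose by 1.23 ± 0.28 (SE), adjusted p = 0.00229, and the highest value stood far above the others. This list summed to 113 to 195 CPM at day 5 and 279.5 to 652 CPM at 1 month.

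Genes of type 2 immunity moved in both directions. Of 13 tested effector genes 6 fell and 2 rose, against 7 and 2 without the raised-GC libraries, while in wild-type ears 5 rose (2 without the raised-GC libraries) and none fell, and for 6 the mutant change was the more negative. Ccl17, which attracts CCR4-bearing T cells, lay at 32.2 to 42.6 CPM (median 40.1) at day 5 and 2.72 to 10.4 CPM (median 6.03) at 1 month, without overlap. It changed by -2.66 ± 0.31 (SE), adjusted p = 8.26e-07. In wild-type ears its medians were 0.621 CPM at day 5 and 1.08 CPM at 1 month, and the difference between the genotypes was -3.72 ± 0.48 (SE), adjusted p = 2.34e-05. Retnla, a secreted protein of alternatively activated macrophages, lay at 5.96 to 21.9 CPM (median 11.6) at day 5 and 0.486 to 2.29 CPM (median 1.65) at 1 month, without overlap. It fell by 3.11 on the log2 scale (-3.11 ± 0.37 (SE), adjusted p = 1.08e-06), and in wild-type ears it rose, by 1.73 (adjusted p = 0.0024). Chil3 and Chil4 encode closely similar chitinase-like proteins, and reads may be assigned to one or the other, so the split between them is uncertain. Chil3 lay at 13.5 to 116 CPM (median 71.1) at day 5 and 3.02 to 7.102 CPM (median 5.26) at 1 month and changed by -3.63 ± 0.44 (SE), adjusted p = 1.56e-06. Chil4 lay at 0.0593 to 1.22 CPM (median 0.2799) at day 5 and 346 to 1143 CPM (median 623) at 1 month. It rose by 10.41 ± 0.76 (SE), adjusted p = 1.52e-08, and its groups did not overlap. The sum of the pair was therefore higher at 1 month, since Chil4 alone exceeded the highest Chil3 value. Among 10 tested type 2 cytokines and receptors 4 fell and 1 rose, and Il4, Il5 and Il9 were too low to test. Without the raised-GC libraries 5 fell and 2 rose. On leaving out single libraries 2 to 4 fell and 1 or none rose. Il13ra2, the decoy receptor for IL-13, lay at 11.4 to 22.4 CPM (median 13.9) at day 5 and 0.632 to 7.74 CPM (median 4.65) at 1 month. It changed by -1.76 ± 0.45 (SE), adjusted p = 0.00719, with -1.04 without the raised-GC libraries and -3.18 with them alone. Il17rb, the receptor for IL-25, changed by -0.96 ± 0.20 (SE), adjusted p = 0.00114.

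**Figure D4:**
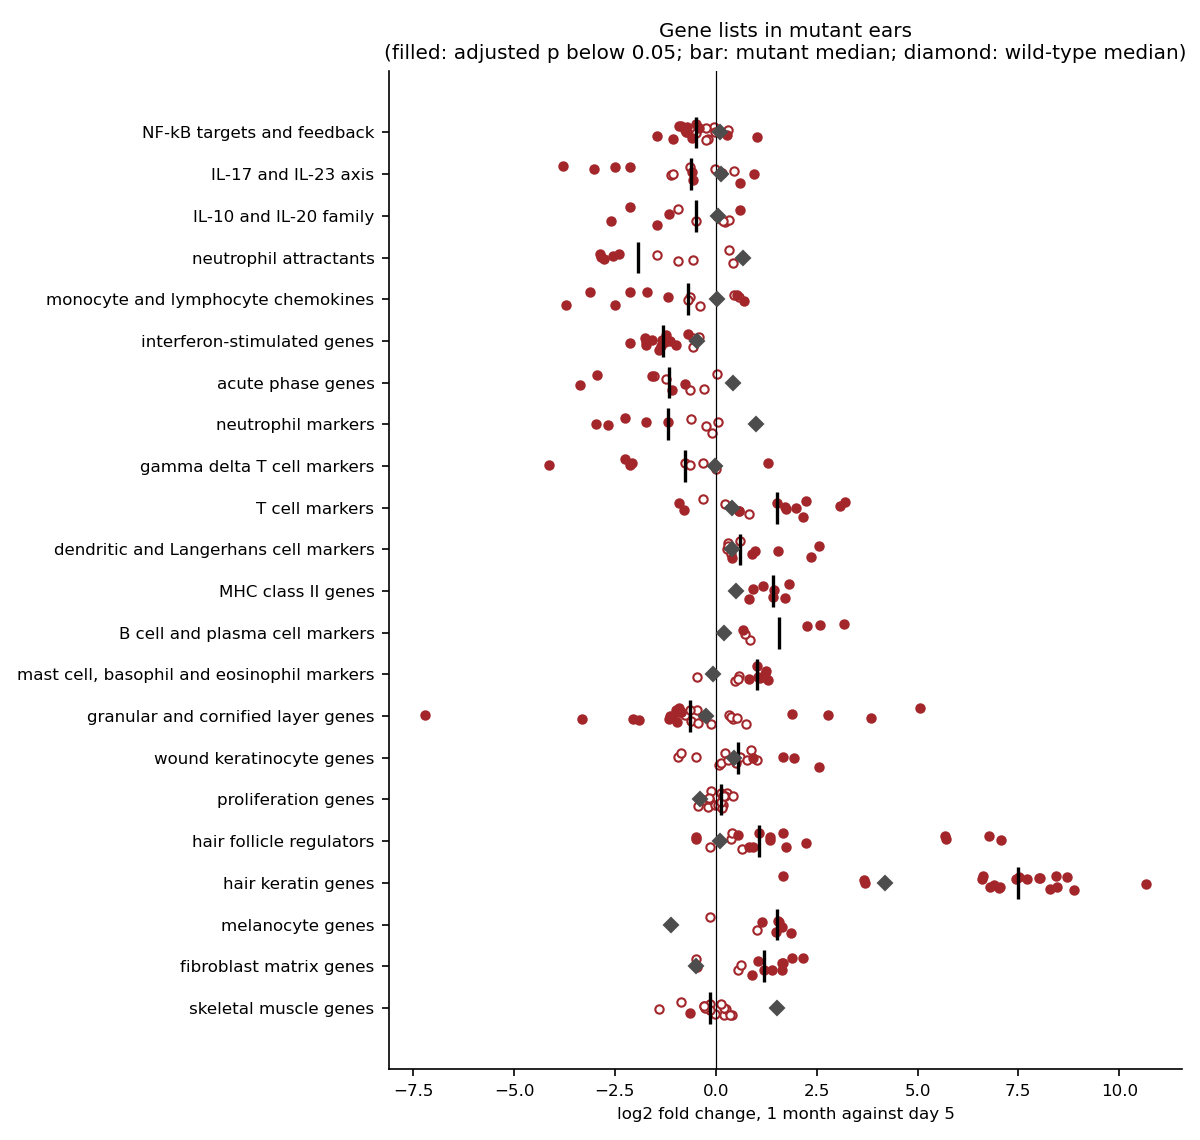
Each point is 1 tested gene of a list and the horizontal axis its log2 fold change from day 5 to 1 month in mutant ears; filled points passed the test at an adjusted p below 0.05, the bar is the mutant median of the list and the diamond the wild-type median. The bars of interferon-stimulated genes (-1.30) and neutrophil attractants (-1.93) lie to the left and those of MHC class II genes (1.42) and hair keratin genes (7.49) to the right, and for melanocyte genes bar and diamond lie on opposite sides of 0.

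In the epidermis the largest falls were in 2 keratins of the upper layers. They had the lowest fitted log2 fold changes among called protein-coding genes with a mean of at least 5 CPM in 1 mutant group. Krt24, a keratin of differentiated keratinocytes at chr11:99279959-99285262 (GRCm38), lay at 48.4 to 221 CPM (median 90.2) at day 5 and 0.156 to 0.302 CPM (median 0.211) at 1 month. Its log2 fold change was -9.00 ± 0.38 (SE), adjusted p = 9.5e-14, with no overlap, against -0.86 (adjusted p = 0.0261) in wild-type ears (-0.81 (adjusted p = 0.356) without the raised-GC libraries), where the medians were 377 CPM at day 5 and 196 CPM at 1 month. Krt2, the keratin of the uppermost living layer of ear epidermis, at chr15:101810689-101818169, lay at 7833 to 12908 CPM (median 10285) at day 5 and 29.8 to 120.2 CPM (median 71.8) at 1 month. It changed by -7.21 ± 0.34 (SE), adjusted p = 4.82e-13, and the difference from the wild-type change was -6.54 ± 0.40 (SE), adjusted p = 1.51e-10. At day 5 Krt2 had been close to the wild-type median of 12491 CPM, and the fall came between day 5 and 1 month. Both falls were similar in size without the raised-GC libraries (-9.13 for Krt24 and -7.08 for Krt2).

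Genes of the granular and cornified layers, a list that includes Krt2, moved in both directions. Of 29 tested 11 fell and 4 rose, and 18 and 5 without the raised-GC libraries. The number that fell ran from 6 without mutant day 5 replicate 3 to 17 without mutant 1 month replicate 2, and it was 7 without mutant 1 month replicate 1 or 6. The filaggrin family itself divided. Flg, profilaggrin, lay at 23.4 to 114 CPM (median 35.0) at day 5 and 379 to 1097 CPM (median 792) at 1 month, without overlap. It rose by 3.86 ± 0.55 (SE), adjusted p = 1.7e-05, while the wild-type medians were 461 CPM at day 5 and 279 CPM at 1 month. Flg2, filaggrin-2, lay at 15.5 to 91.3 CPM (median 21.7) at day 5 and 0.0973 to 8.59 CPM (median 3.61) at 1 month and changed by -3.32 ± 0.58 (SE), adjusted p = 0.000196, and its wild-type medians were 566 CPM at day 5 and 482 CPM at 1 month. At 1 month the mutant median of Flg was thus above the wild-type one, while that of Flg2 was further below it than at day 5. Hrnr, hornerin, of the same family, lay at 330.0 to 936 CPM (median 535) at day 5 and 20.5 to 237 CPM (median 153) at 1 month. It changed by -2.07 ± 0.47 (SE), adjusted p = 0.00263 (-1.5 without the raised-GC libraries and -2.95 with them alone). Rptn, repetin, lay at 4.21 to 83.7 CPM (median 33.8) at day 5 and 111 to 406 CPM (median 334) at 1 month. It rose by 2.78 ± 0.67 (SE), adjusted p = 0.004. Tchh, trichohyalin, which hardens the inner root sheath of the follicle and some epidermis, lay at 9.62 to 18.5 CPM (median 11.5) at day 5 and 131 to 665 CPM (median 426) at 1 month. It rose by 5.07 ± 0.61 (SE), adjusted p = 1.62e-06. Casp14, the protease that processes filaggrin, lay at 50.9 to 161 CPM (median 102) at day 5 and 267 to 547 CPM (median 339.7) at 1 month and rose by 1.90 ± 0.29 (SE), adjusted p = 3.69e-05, without overlap. Lor, loricrin, the main protein of the cornified envelope, changed by -1.14 ± 0.32 (SE), adjusted p = 0.0133.

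Of 13 spinous layer genes 3 fell and 2 rose, and 6 and 2 without the raised-GC libraries. Over all tested genes 8.23% were called lower and 11.2% higher, and 17.2% and 16% without those libraries. Krt1 and Krt10 form the filament pair of the spinous layer and moved apart. Krt1 lay at 1126 to 5949 CPM (median 3648) at day 5 and 9239.5 to 16293 CPM (median 10763) at 1 month. It rose by 1.76 ± 0.35 (SE), adjusted p = 0.000719, and its groups stood apart. Krt10 lay at 7950.3 to 11078 CPM (median 9137) at day 5 and 4409.8 to 8721 CPM (median 5945) at 1 month. It changed by -0.63 ± 0.17 (SE), adjusted p = 0.012, with overlap. Of 13 basal keratinocyte genes 3 fell and 2 rose, and on leaving out single libraries 2 to 5 fell and 0 to 3 rose. Without the raised-GC libraries 3 fell and 1 rose. Itgb4, the integrin chain of hemidesmosomes, lay at 295 to 328 CPM (median 318) at day 5 and 151 to 249 CPM (median 188) at 1 month. It changed by -0.73 ± 0.12 (SE), adjusted p = 5.77e-05, and Col17a1, the hemidesmosome collagen, by -0.67 ± 0.14 (SE), adjusted p = 0.00101. Krt14, the basal keratin, rose by 0.56 ± 0.18 (SE), adjusted p = 0.0352, and had 0.18 (adjusted p = 0.315) without the raised-GC libraries.

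Some genes of wounded and activated keratinocytes rose. Of 16 tested 4 rose and none fell, and 3 rose and 1 fell without the raised-GC libraries, where 16% of all tested genes were called higher. In wild-type ears 5 rose and 1 fell, and 2 rose without the raised-GC libraries. Krt6a, a keratin of wounded and psoriatic epidermis, lay at 122 to 2039.9 CPM (median 1023) at day 5 and 1730.0 to 4435 CPM (median 3193) at 1 month, with wild-type medians of 43.9 CPM at day 5 and 94.9 CPM at 1 month. It rose by 1.67 ± 0.49 (SE), adjusted p = 0.0175, but had 1.28 (adjusted p = 0.146) without the raised-GC libraries. Krt16, its partner, lay at 634 to 4742 CPM (median 2586) at day 5 and 2349.7 to 5659.7 CPM (median 3231) at 1 month and did not pass the test (0.50 ± 0.54 (SE), adjusted p = 0.557). Areg, a growth factor for keratinocytes, lay at 0.653 to 3.76 CPM (median 2.53) at day 5 and 5.78 to 11.1 CPM (median 8.07) at 1 month, without overlap, and rose by 1.93 ± 0.30 (SE), adjusted p = 4.87e-05, and Stfa3, a cystatin, by 2.55 ± 0.52 (SE), adjusted p = 0.000939. Both also rose in wild-type ears, Areg by 1.86 (adjusted p = 0.00807) and Stfa3 by 2.35 (adjusted p = 0.0136), but neither wild-type call was kept without the raised-GC libraries, with 1.6 (adjusted p = 0.207) and 2.42 (adjusted p = 0.126). Of 20 tested Sprr and Lce3 genes, which encode cornified envelope proteins of stressed epidermis, 4 rose and none fell, and none rose and 1 fell without the raised-GC libraries. Without mutant 1 month replicate 2 or mutant day 5 replicate 3 alone, 2 rose. Sprr1b, for example, lay at 7.71 to 258 CPM (median 72.6) at day 5 and 229 to 564 CPM (median 370.2) at 1 month, with 1.93 ± 0.66 (SE), adjusted p = 0.0424 in all libraries and 1.61 (adjusted p = 0.116) without the raised-GC ones, and leaving out any 1 of 9 single libraries lost its call as well (1.68 to 1.95). Members of the Sprr2 group are near-identical, and their split is uncertain.

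The values of some proliferation genes depended on which libraries of 1 month were used. None of 20 tested passed edgeR's test in mutant ears, 1 had an unadjusted p under 0.05, and DESeq2 and limma voom called 1 each. Without the raised-GC libraries 2 rose, where 16% of all tested genes were called higher. With the raised-GC libraries alone at 1 month 8 rose and 4 fell. There 29.9% of all tested genes were called higher and 26.4% lower, so these counts were not far from the share of all genes. In wild-type ears 5 fell (none without the raised-GC libraries). Mki67, the common marker of dividing cells, lay at 187 to 279.5 CPM at day 5. At 1 month it lay at 31.96 to 70.1 CPM in the 3 raised-GC libraries and at 302 to 402 CPM in the other 3, so that its log2 fold change was 0.68 (adjusted p = 0.000952) without the raised-GC libraries and -2.07 (adjusted p = 0.000184) with them alone. Top2a, which untangles DNA before division, showed the same split, with 0.33 (adjusted p = 0.0489) and -0.94 (adjusted p = 0.00269). Cdc20, an activator of the last steps of division, went the other way, with 0.12 (adjusted p = 0.521) and 0.72 (adjusted p = 0.00064).

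Hair keratin genes had the largest median of the 43 lists. All 20 tested hair keratin genes rose, in each of the 3 fits, with a median log2 fold change of 7.49, and setting Krt34 at the bound given below leaves that median as it is. In wild-type ears 18 rose, with a median of 4.20, and for 9 of the 20 the mutant rise was the larger, for 4 without the raised-GC libraries. Krt71, a keratin of the inner root sheath, lay at 0 to 1.78 CPM (median 0.784) at day 5 and 116 to 954 CPM (median 354) at 1 month. It rose by 8.89 ± 0.91 (SE), adjusted p = 1.5e-07 (8.29 without the raised-GC libraries), against 4.73 (adjusted p = 0.000479) in wild-type ears (5.34 (adjusted p = 0.000792) without them), with a difference of 4.16 ± 1.07 (SE), adjusted p = 0.0145 that was 2.94 (adjusted p = 0.143) without the raised-GC libraries. Krt35, a keratin of the growing hair shaft, lay at 0 to 0.286 CPM (median 0.128) at day 5 and 19.8 to 75.1 CPM (median 33.9) at 1 month. It rose by 8.01 ± 0.66 (SE), adjusted p = 7.12e-09. Krt28, of the inner root sheath, lay at 0.172 to 0.521 CPM (median 0.424) at day 5 and 22.1 to 103 CPM (median 48.96) at 1 month. It rose by 7.03 ± 0.49 (SE), adjusted p = 5.23e-10. Krt73, of its cuticle, lay at 0.463 to 0.859 CPM (median 0.625) at day 5 and 33.3 to 135 CPM (median 69.6) at 1 month. It rose by 6.89 ± 0.52 (SE), adjusted p = 1.78e-09. In these 4 genes every 1-month library stood above every day-5 library. Krt34, a keratin of the hair shaft, had no count in any mutant library of day 5 and 3.14 to 25.5 CPM at 1 month. With 3 counts over the 6 day-5 libraries together as the limit that a count of 0 allows, it was at least 360-fold higher at 1 month. Krtap7-1, which encodes a matrix protein of the hair shaft, lay at 0 to 0.0579 CPM (median 0.0526) at day 5 and 7.94 to 54.5 CPM (median 19.5) at 1 month and rose by 9.11 ± 0.86 (SE), adjusted p = 5.54e-08 (8.49 without the raised-GC libraries).

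Most genes of a list of follicle regulators and other follicle genes rose as well. Of 19 tested 13 rose and 2 fell, and 11 and 3 without the raised-GC libraries, against 2 and 0 in wild-type ears, and for 10 (6 without the raised-GC libraries) the mutant change was the more positive. S100a3, a calcium-binding protein of the hair cuticle, lay at 0.716 to 1.32 CPM (median 0.947) at day 5 and 24.01 to 83.99 CPM (median 41.7) at 1 month, without overlap. It rose by 5.68 ± 0.33 (SE), adjusted p = 1.72e-11, against 0.78 (adjusted p = 0.0703) in wild-type ears, whose medians were 4.904 CPM at day 5 and 7.95 CPM at 1 month. Padi3, which citrullinates trichohyalin, lay at 0.162 to 0.405 CPM (median 0.2997) at day 5 and 9.42 to 66.2 CPM (median 30.9) at 1 month. It rose by 6.76 ± 0.53 (SE), adjusted p = 3.68e-09, and its wild-type change of 4.23 (adjusted p = 6.04e-05) did not differ by the test (2.53 ± 0.95 (SE), adjusted p = 0.107), with 1.72 (adjusted p = 0.257) without the raised-GC libraries. Foxe1, a transcription factor of the follicle, lay at 0 to 0.178 CPM (median 0.0289) at day 5 and 1.43 to 5.69 CPM (median 3.83) at 1 month. It rose by 5.70 ± 0.56 (SE), adjusted p = 8.47e-08. Hoxc13, which drives hair keratin transcription, lay at 2.35 to 5.76 CPM (median 2.87) at day 5 and 8.49 to 23.7 CPM (median 18.3) at 1 month. It rose by 2.24 ± 0.27 (SE), adjusted p = 1.27e-06. Lef1, the Wnt-responsive factor of the hair matrix, rose by 1.35 ± 0.18 (SE), adjusted p = 8.09e-06, and Lgr5, a receptor of follicle stem cells, by 1.68 ± 0.33 (SE), adjusted p = 0.000581. Shh, the signal that starts follicle growth, had no count at day 5 and up to 1.999 CPM at 1 month, and by the same limit was at least 31.1-fold higher. Lgr6, a receptor of stem cells of the upper follicle, was one of the 2 that fell (-0.50 ± 0.14 (SE), adjusted p = 0.0122).

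Most melanocyte genes rose in mutant ears and most fell in wild-type ears. Of 8 tested 6 rose and none fell in mutant ears, in each of the 3 fits for those 6, while 5 fell (3 without the raised-GC libraries) and none rose in wild-type ears. For 7 the time changes differed, and for 6 without the raised-GC libraries. Dct, which encodes an enzyme of melanin synthesis, lay at 5.04 to 9.97 CPM (median 7.57) at day 5 and 19.4 to 33.6 CPM (median 22.01) at 1 month, without overlap. Its wild-type medians were 27.4 CPM at day 5 and 15.5 CPM at 1 month, its mutant change was 1.63 ± 0.20 (SE), adjusted p = 2.53e-06 and the difference 2.29 ± 0.28 (SE), adjusted p = 1.37e-05. Tyrp1, a related enzyme, lay at 3.73 to 6.35 CPM (median 4.82) at day 5 and 10.9 to 19.2 CPM (median 14.02) at 1 month, without overlap, and rose by 1.54 ± 0.22 (SE), adjusted p = 1.42e-05. In wild-type ears Tyrp1 changed by -1.70 (adjusted p = 2.09e-05). Tyr, tyrosinase, lay at 0.573 to 1.31 CPM (median 0.9101) at day 5 and 2.65 to 4.25 CPM (median 3.59) at 1 month. It rose by 1.87 ± 0.27 (SE), adjusted p = 2.12e-05, and Pmel, of the melanosome matrix, by 1.49 ± 0.24 (SE), adjusted p = 7.02e-05. At day 5 all mutant values of these 4 genes were below the wild-type medians of the same day, and at 1 month their mutant medians were above the wild-type ones. Mitf, the transcription factor of the lineage, lay at 12.9 to 18.4 CPM (median 16.6) at day 5 and 4.77 to 20.6 CPM (median 16.1) at 1 month and did not pass the test (-0.15 ± 0.26 (SE), adjusted p = 0.729).

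Most collagens and other fibroblast matrix genes rose in mutant ears. Of 13 tested 9 rose and 1 fell in mutant ears, against 10 and 0 without the raised-GC libraries, while 3 fell and none rose in wild-type ears. Leaving out the raised-GC libraries keeps 2 wild-type libraries of 1 month, and there none of these falls passed edgeR's test and 7 of the 13 had an unadjusted p under 0.05, and the wild-type median was -0.48 against -0.50 with all libraries. For 10 the mutant change was the more positive, and for 9 without the raised-GC libraries. Col14a1, a collagen that coats fibrils, lay at 25.9 to 54.5 CPM (median 35.4) at day 5 and 121 to 244 CPM (median 162) at 1 month, without overlap. It rose by 2.16 ± 0.17 (SE), adjusted p = 5.2e-09. Col1a1, the main fibrillar collagen of the dermis, lay at 806 to 2097 CPM (median 1234) at day 5 and 2605 to 10724 CPM (median 4362) at 1 month. It rose by 1.89 ± 0.28 (SE), adjusted p = 2.33e-05, its wild-type change was -0.97 (adjusted p = 0.0266), or -1.18 (adjusted p = 0.0539) without the raised-GC libraries, and its wild-type medians were 4557 CPM at day 5 and 2105 CPM at 1 month. Col3a1 lay at 1079.9 to 3509.7 CPM (median 2066) at day 5 and 4064 to 11408 CPM (median 6253) at 1 month. It rose by 1.65 ± 0.24 (SE), adjusted p = 2e-05, and Col5a1, which starts fibril assembly, by 1.67 ± 0.24 (SE), adjusted p = 1.44e-05. The mutant medians of Col1a1 and Col3a1 were thus below the wild-type ones at day 5 and above them at 1 month, and the wild-type medians of Col3a1 were 4419.6 CPM at day 5 and 2726 CPM at 1 month. Lrrc15, a membrane protein of activated fibroblasts that some other skin cells also read, was among the 10 largest rises that differed from the wild-type change. It lay at 0.745 to 3.73 CPM (median 1.498) at day 5 and 68.5 to 198 CPM (median 113) at 1 month and rose by 5.98 ± 0.53 (SE), adjusted p = 2.02e-08, with a difference from wild type of 4.87 ± 0.65 (SE), adjusted p = 3.43e-05, or 3.97 (adjusted p = 0.00327) without the raised-GC libraries.

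**Figure D5:**
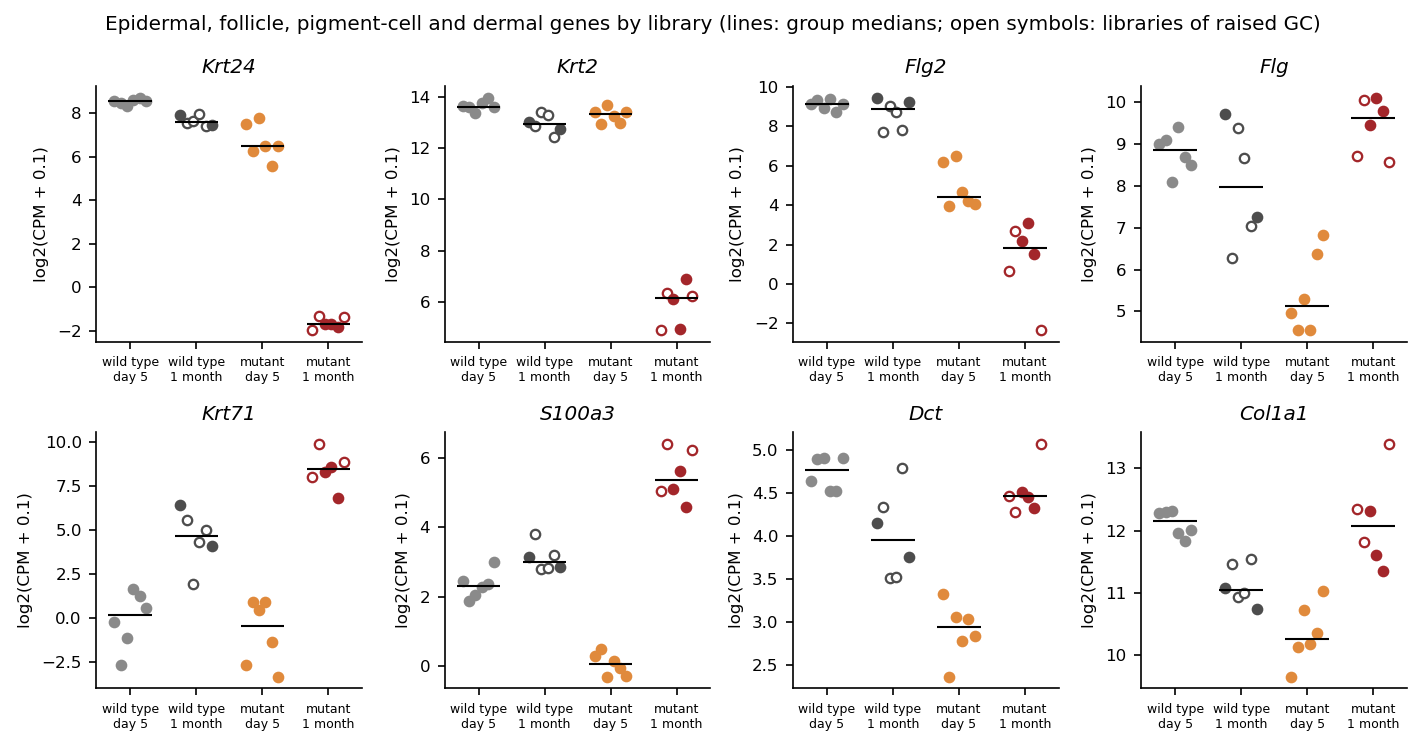
Each point is 1 library, by group, and the vertical axis is log2(CPM + 0.1); lines are group medians and open symbols the raised-GC libraries of 1 month. In mutant ears all 6 values of Krt24, Krt2 and Flg2 at 1 month lie below the lowest of day 5 and all 6 of Flg, Krt71, S100a3, Dct and Col1a1 above the highest, and the wild-type points of Dct and Col1a1 at 1 month lie mostly below those of day 5.

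Of 14 matrix remodelling genes 4 rose and 3 fell, and 3 rose and 4 fell without the raised-GC libraries. Mmp14, a membrane-bound metalloprotease, lay at 128 to 161 CPM (median 141) at day 5 and 204 to 500.0 CPM (median 317) at 1 month, without overlap. It rose by 1.21 ± 0.16 (SE), adjusted p = 8.59e-06, and Mmp2, the gelatinase it activates, by 1.26 ± 0.19 (SE), adjusted p = 3.08e-05. Plat, tissue plasminogen activator, lay at 9.74 to 21.9 CPM (median 11.8) at day 5 and 23.04 to 43.7 CPM (median 31.9) at 1 month. It rose by 1.32 ± 0.19 (SE), adjusted p = 1.42e-05. Adamts1, a protease of proteoglycans, lay at 156 to 239 CPM (median 218) at day 5 and 72.5 to 145 CPM (median 98.1) at 1 month. It changed by -1.01 ± 0.22 (SE), adjusted p = 0.00194. Of 12 endothelial genes 5 rose and 1 fell, and 7 and 2 without the raised-GC libraries. Vcam1, an adhesion molecule for lymphocytes, rose by 0.86 ± 0.16 (SE), adjusted p = 0.000325, and Vwf, von Willebrand factor, by 0.85 ± 0.18 (SE), adjusted p = 0.00126. Lyve1, the hyaluronan receptor of lymphatic vessels and some macrophages, lay at 53.96 to 75.8 CPM (median 71.1) at day 5 and 15.9 to 28.3 CPM (median 22.6) at 1 month, without overlap, and changed by -1.59 ± 0.19 (SE), adjusted p = 1.64e-06. Its wild-type medians were 33.1 CPM at day 5 and 24.9 CPM at 1 month, so that the day-5 mutant level was the highest of the 4 groups by median.

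Several circadian clock genes differed between the times in mutant ears. Of 13 tested 4 rose and 3 fell in mutant ears and the time changes differed for 6, 3 in each direction. Without the raised-GC libraries 5 rose and 4 fell in mutant ears, and the difference was more positive for 3 and more negative for 2. In wild-type ears none passed edgeR's test, 3 had an unadjusted p under 0.05, and DESeq2 called 1 and limma voom 4. Npas2, a clock activator, lay at 9.72 to 16.3 CPM (median 12.6) at day 5 and 1.19 to 2.24 CPM (median 1.84) at 1 month, without overlap. Its mutant change was -2.91 ± 0.17 (SE), adjusted p = 1.5e-11, its wild-type change -0.20 (adjusted p = 0.387) and the difference -2.71 ± 0.22 (SE), adjusted p = 3.96e-08. Arntl, which encodes the partner BMAL1, lay at 32.3 to 42.2 CPM (median 36.2) at day 5 and 11.1 to 18.5 CPM (median 14.9) at 1 month, without overlap. It changed by -1.35 ± 0.14 (SE), adjusted p = 1.28e-07. Dbp, an output gene that the clock activators switch on, lay at 10.1 to 24.3 CPM (median 20.3) at day 5 and 36.8 to 75.6 CPM (median 54.6) at 1 month. It rose by 1.5 ± 0.19 (SE), adjusted p = 3.65e-06, and Per2, a clock repressor, by 0.85 ± 0.20 (SE), adjusted p = 0.00352. Activators were thus lower and Dbp and Per2 higher at 1 month. The labels do not give the time of day at which ears were taken, so its part in these values was not tested.

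A few genes outside the lists were among the largest changes. Serpinb6d, a serine protease inhibitor, lay at 21.1 to 59.2 CPM (median 44.1) at day 5 and 0.292 to 2.85 CPM (median 1.46) at 1 month. It changed by -4.80 ± 0.46 (SE), adjusted p = 6.22e-08. Fgf23, a hormone of phosphate balance made mainly in bone, lay at 11.5 to 72.6 CPM (median 45.7) at day 5 and 1.39 to 5.497 CPM (median 1.94) at 1 month and changed by -3.99 ± 0.44 (SE), adjusted p = 4.97e-07, while its wild-type medians were 0.0289 CPM at day 5 and 0.0838 CPM at 1 month. Both stood apart by time in the mutant ears. Gabrp, a subunit of a GABA receptor found in epithelia, lay at 0.0573 to 0.415 CPM (median 0.198) at day 5 and 3.09 to 19.5 CPM (median 16.4) at 1 month. It rose by 5.89 ± 0.55 (SE), adjusted p = 4.67e-08. Mup22, of the major urinary protein family, whose members are near-identical, had no count at day 5 and 0.195 to 29.9 CPM at 1 month, and it rose in wild-type ears as well, by 5.61 (adjusted p = 0.00357). Mutant 1 month replicate 4 held the highest value of Mup22. Haemoglobin genes, read in red cells, rose in both genotypes: all 5 tested rose in each, Hba-a1 lay at 0.521 to 5.47 CPM (median 1.68) at day 5 and 27.4 to 168 CPM (median 88.6) at 1 month in mutant ears, and its changes of 5.47 ± 0.49 (SE) in mutant and 5.50 (adjusted p = 8.99e-08) in wild-type ears did not differ by the test (adjusted p = 0.994). Without the raised-GC libraries the mutant change of Hba-a1 was 4.59.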

How the data were processed

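RNA was read from whole mouse ears in 24 libraries by polyA-selected RNA-seq, single-end. The authors deposited 1 table of expected counts per gene, made with RSEM 1.3.0 and STAR 2.5.2 on GRCm38, and DESeq2 1.14.1 is also named, all per the submitters' processing notes. Its gene annotation is not named there. Values were rounded, since 6.71% of them were not whole. All 24 columns were mapped by name and 0 were left unused. Symbols came from GENCODE M21, which held 51719 of 51912 gene IDs.

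Library totals are given in the report, and their counting error is small beside the spread between samples for all but the lowest genes. The main test was edgeR 4.0.16 (R 4.3.3) with TMM factors, filterByExpr (17287 genes left), 1 coefficient per group over all 24 libraries and a robust quasi-likelihood fit. Standard errors are the log2 fold change over the root of the F statistic, and Benjamini-Hochberg adjusted p-values under 0.05 over all tested genes were calls. The difference of the time changes was tested as mutant minus wild type. On simulated counts for the mutant comparison with 200 seeded genes over 16654 tested genes, the test recovered 12 of 67 at 1.5-fold, 48 of 67 at 2-fold and 62 of 66 at 4-fold. It called 6 unchanged genes. Apart from the seeded genes all groups were drawn from the mutant day-5 means, with no split among the 1-month libraries. These numbers therefore do not measure the error of the real comparison, where that split is present.

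The comparison and the 43 gene lists were chosen with earlier results of these data known. The naming rule took Card14, then the 10 largest rises and 10 largest falls among called genes with a mean of at least 5 CPM in 1 mutant group. It also took up to 4 members of each list with the smallest adjusted p. A step added after the values were seen took the 10 largest rises and 10 largest falls whose time change also differed from wild type. Together these steps gave 176 genes. Other genes named, such as list members that did not pass the test, were chosen after their values were seen. Alternatives were RLE factors, total counts, other filters, DESeq2 1.42.0, limma 3.58.1 voom with quality weights, a fit that was not robust, only the libraries compared, an added minimum log2 fold change of 1, a replicate block and leaving out each library. A further 3, on the GC content of libraries, were added after the data were seen. No pair of mutant libraries of the same time agreed within sampling noise (smallest chi-square per degree of freedom 17.6). Wild-type libraries were not checked in this way. Some genes are not reported here. Promoters from RefSeq (GRCm38.p6) were searched for letters only.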

Additional observations from a re-analysis of the deposited data

Results flagged for a closer look

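In mutant ears 28 of 343 groups of 6 values had a highest or lowest library far from the other 5 by Dixon's criterion, which flags about 1 group in 20 by chance. Of these, 18 were at 1 month and 10 at day 5, and 15 were the highest value in 1 of the 3 raised-GC mutant libraries of 1 month. No weighing of causes was made, and the part of these libraries' GC content in the values was not tested gene by gene.

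At 1 month replicate 2 was highest for Card14 (25.3 CPM, others 9.93 to 14.5 CPM), for the acute phase gene Orm1 (57.4 CPM, others 21.1 to 27.5 CPM) and for Gm3788 (0.554 CPM, others 0 to 0.195 CPM). It was also highest for 3 hair keratins, Krt72 (80.2 CPM, others 5.03 to 26.8 CPM), Krt35 (75.1 CPM, others 19.8 to 39.6 CPM) and Krt27 (409 CPM, others 44.0 to 156 CPM). Replicate 1 of 1 month was highest for lymphocyte and mast cell genes: Trac (6.40 CPM, others 2.45 to 3.36 CPM), Nkg7 (2.08 CPM, others 0.554 to 0.851 CPM), Mcpt4 (278 CPM, others 82.0 to 117 CPM) and Tpsb2 (122 CPM, others 30.7 to 53.8 CPM), and for the endothelial gene Emcn (16.2 CPM, others 10.4 to 12.5 CPM). Replicate 6 of 1 month was highest for the receptor Notch3 (181 CPM, others 109 to 132 CPM), the melanocyte genes Dct (33.6 CPM, others 19.4 to 22.8 CPM) and Pmel (19.5 CPM, others 8.54 to 10.9 CPM), and Col5a1 (857 CPM, others 267 to 455.5 CPM). The remaining 3 of 1 month were in the libraries without raised GC: Gm15432 in replicate 3 (0.126 CPM, 0 in the others), Mup22 in replicate 4 (29.9 CPM, others 0.195 to 8.10 CPM) and Cxcr2 in replicate 5 (45.8 CPM, others 33.7 to 37.4 CPM).

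At day 5 replicate 6 was highest for 3 haemoglobin genes, Hba-a1 (5.47 CPM, others 0.521 to 1.72 CPM), Hbb-bt (1.38 CPM, others 0 to 0.116 CPM) and Hbb-bs (10.65 CPM, others 0.119 to 0.972 CPM). Replicate 2 was highest for Gzma (3.27 CPM, others 0.602 to 1.40 CPM) and Tchh (18.5 CPM, others 9.62 to 12.04 CPM), and replicate 3 for Mx2 (5.575 CPM, others 2.54 to 3.32 CPM) and Gm10229 (0.0511 CPM, 0 in the others). Replicate 4 was highest for Krt31 (0.162 CPM, others 0 to 0.0511 CPM) and Cd79b (0.432 CPM, others 0.153 to 0.241 CPM), and replicate 5 was lowest for Vcam1 (6.71 CPM, others 8.90 to 9.91 CPM).

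Some of the 176 genes chosen by the naming rule were taken because their time change differed from wild type, so the next count is partly set by that choice. For 97 of the 176 the time change differed between mutant and wild-type ears in edgeR's test of the difference. Of these, 7 were called in opposite directions in the 2 genotypes, with differences of the log2 time changes, mutant minus wild type, of -4.84 for Retnla, 0.93 for Notch3, 2.29 for Dct, 3.24 for Tyrp1, 3.34 for Tyr, 2.68 for Pmel and 2.496 for Col5a1.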

How the results depend on the processing

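None of the 176 named genes turned its direction under any alternative run. Their calls were lost for 22 without the raised-GC libraries, 12 with those alone at 1 month, 19 with only the libraries compared, 44 under an added minimum log2 fold change of 1, 11 with the replicate block, 8 with limma voom, 6 with no low-count filter, 1 each with DESeq2, RLE factors and total counts, and 23 on leaving out some single library. Genes higher and lower in mutant ears (1937 and 1423) became 820 and 659 under the added minimum change and 1264 and 845 with only the libraries compared. The lower ones became 3073 without the raised-GC libraries, 2668 with library GC as a covariate and 3425 with voom. With the raised-GC libraries alone at 1 month the counts were 5277 and 4661. Genes with a more positive difference from wild type (809) became 522 under the added minimum, 1389 with the GC covariate and 4037 with voom, and those with a more negative one (707) 1259 with the covariate and 4179 with voom. Genes higher in wild-type ears (1086) became 515 under the added minimum, 1874 with DESeq2, 271 without raised-GC libraries, 3838 with those alone, 3666 with voom and 1755 with only the libraries compared. Genes lower in wild-type ears (486) became 155 under the added minimum, 170 without raised-GC libraries, 3440 with those alone, 1031 with the covariate, 4553 with voom and 266 with no low-count filter. The cause was not tested. Leaving out single libraries gave 1623 to 2377 higher and 1087 to 1536 lower genes in mutant ears, 637 to 891 and 524 to 853 for the differences, and 651 to 2001 higher and 272 to 1025 lower in wild-type ears. The highest wild-type counts came without wild-type 1 month replicate 1, the lowest without wild-type 1 month replicate 5 (higher) and 3 (lower), and without mutant 1 month replicate 6, which enters through the shared spread, 1783 were higher. The wild-type count of lower genes was 272 to 307 without any 1 of 9 other wild-type libraries.

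Mutant libraries with the same replicate number were not paired by this check (correlation of deviations -0.09 to 0.394, and 1 of 6 correlated best with its own number). With the replicate block 1628 genes were higher and 1172 lower in mutant ears, 603 and 463 had a more positive or more negative difference, and 731 were higher and 288 lower in wild-type ears. Genes of a few counts per library, such as Tcrg-V5 or Shh, are limited by depth.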

Other observations

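Of 15 skeletal muscle genes 1 fell and none rose in mutant ears (median -0.14), and on leaving out single libraries 0 to 3 fell. Without the raised-GC libraries 1 fell and none rose in mutant ears. In wild-type ears 14 rose (median 1.51). Leaving out the raised-GC libraries keeps 2 wild-type libraries of 1 month, and there no wild-type rise passed edgeR's test, 12 of the 15 had an unadjusted p under 0.05 and the median was 0.92. The time changes differed for 4 of them, each more negative in mutant ears (2 without the raised-GC libraries). Of 12 cartilage genes 5 rose and none fell, and 1 and 1 without the raised-GC libraries. The rises were 3 without mutant 1 month replicate 6 or mutant day 5 replicate 1, 2 or 4. Col11a1, a fibrillar collagen of cartilage, rose by 1.25 ± 0.30 (SE), adjusted p = 0.00359 and by 1.67 without those libraries. The cartilage list summed to 246 to 482 CPM at day 5 and 339.8 to 569.8 CPM at 1 month in mutant ears and to 734 to 969 CPM and 605 to 1232 CPM in wild-type ears. Of 9 Schwann cell genes 1 fell (none without mutant 1 month replicate 3 or mutant day 5 replicate 3), and 4 fell without the raised-GC libraries. Over all tested genes 8.23% were called lower in mutant ears, and 17.2% without those libraries.

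Of 15 sebaceous gland genes 2 rose and 4 fell, and none and 5 without the raised-GC libraries. The rises were 1 without mutant 1 month replicate 2, and the falls 2 without mutant day 5 replicate 2. Of 16 genes of sterol and fatty acid synthesis 3 fell and none rose, and 8 fell without the raised-GC libraries, while 5 fell in wild-type ears. On leaving out single libraries the count that fell was 1 to 4, lowest without mutant day 5 replicate 2. Srebf1, a transcription factor of lipid synthesis, changed by -0.63 ± 0.14 (SE), adjusted p = 0.00264. Of 12 adipocyte genes 1 rose, Thrsp, a regulator of fat synthesis (2.69 ± 0.45 (SE), adjusted p = 0.000109), and 1 fell, Plin4, a lipid droplet protein (-0.91 ± 0.18 (SE), adjusted p = 0.000559), while in wild-type ears 5 rose and none fell. None of these wild-type rises passed edgeR's test without the raised-GC libraries, where 5 of 12 had an unadjusted p under 0.05 and the wild-type median was 0.53 against 0.72. Without mutant day 5 replicate 1 or 3 the mutant rises were 2. Without the raised-GC libraries 2 adipocyte genes rose and 1 fell in mutant ears. Over all tested genes 11.2% were called higher and 8.23% lower in mutant ears with all libraries. The mutant adipocyte counts with all libraries were thus near the share of all genes.

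Of 14 glycolysis genes 7 rose in mutant ears and 7 in wild-type ears, but 1 in each without the raised-GC libraries and 12 in mutant ears with those alone. The mutant count was 3 to 8 on leaving out single libraries, with 3 without mutant 1 month replicate 1 and 4 without mutant 1 month replicate 2 or mutant day 5 replicate 1. Of 15 genes of oxidative phosphorylation 1 rose in mutant ears, 12 with the raised-GC libraries alone, and 9 in wild-type ears (1 without the raised-GC libraries). Its mutant count was 0 to 5 on leaving out single libraries, with 5 without mutant 1 month replicate 3. Without the raised-GC libraries 1 gene of oxidative phosphorylation rose and 1 fell in mutant ears. Over all tested genes 11.2% were called higher in mutant ears, and 29.9% with the raised-GC libraries alone at 1 month. No difference between the genotypes passed edgeR's test for either list. For glycolysis 2 differences had an unadjusted p under 0.05 and DESeq2 called 1 and limma voom 8, and for oxidative phosphorylation 1 did and they called 0 and 13.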
